A study of Mus musculus with 6 samples.

Results

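The integrin subunit genes described here are Itgam, Itgal, Itga4 and Itgb2, whose products are carried mainly by leukocytes, and Itgav, Itga8, Itgb1, Itgb3, Itgb5 and Itgb8, whose products bind extracellular matrix or latent TGF-beta. They were chosen by symbol, 10 of the 40481 genes in the deposited count table, and each symbol matched 1 gene. Liver RNA of male C57BL/6 mice was sequenced from 6 pools, 3 of each genotype, and every pool combined 3 to 4 animals by the study's methods, while the series description names 12 livers without making clear whether for each genotype or for both. All mice carried floxed Mttp alleles with a Villin Cre ERT2 transgene, in which the Villin promoter drives a tamoxifen-dependent Cre recombinase in intestinal epithelium, and were 12 to 16 weeks old. *Mttp-IKO* mice received tamoxifen (50 μg/g for 5 days), which deletes Mttp, the gene of the triglyceride transfer protein that builds chylomicrons, from the gut. Control littermates, called wild type in the sample labels, received vehicle, so that tamoxifen and deletion cannot be told apart. Both groups then ate a methionine- and choline-deficient (MCD) diet, which causes steatohepatitis, for 3 weeks, beginning 3 weeks after injection, and were fasted for 4 h. The comparison asks which integrin mRNAs differed in the liver when chylomicron assembly was blocked in the intestine.

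Integrins are receptors made of 1 alpha and 1 beta subunit that tie a cell to matrix or to another cell. Itgb2 (CD18) pairs with Itgal to form LFA-1, which binds ICAMs during T cell and leukocyte adhesion, and with Itgam (CD11b) to form Mac-1, a receptor of myeloid cells for complement fragments, fibrinogen and ICAM-1. Itga4 pairs with Itgb1 to form VLA-4, a receptor for VCAM-1. Itgav pairs with Itgb1, Itgb3, Itgb5, Itgb6 or Itgb8 to bind RGD motifs in vitronectin, fibronectin and latent TGF-beta, and Itga8 pairs with Itgb1 alone. In the liver Itga8 is known from stellate cells and other mesenchymal cells, Itgb8 from epithelia and stellate cells, and Itgb1 and Itgb5 from most cell types.

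The pools held 25271585 to 36238734 reads on genes, so a count of 0 allows up to 0.0828 to 0.119 CPM (library-scaled counts), a limit of counting error only. This limit was scaled by total reads alone, unlike the other CPM values. *Mttp-IKO* pool 3 stood apart, where small RNA genes took 0.289% of all reads, while elsewhere they took 1.92% to 3.51%. Short mRNAs took 1.84% of its mRNA reads and 3.98% to 4.28% of those of the remaining pools. The shortest member model, that of Itgb2, has 3052 nt. Some cell type markers used below are shorter, such as Tyrobp of leukocytes (564 nt) and Pf4 of platelets (586 nt). The part of length in the marker sums of this pool was not tested. Control pool 2 held 587 CPM of 8 striated muscle markers, against 0.545 to 69.9 CPM in the others. The 8 hepatocyte markers summed to 55549 to 91532 CPM in control and 111521 to 165159 CPM in *Mttp-IKO* pools, and 0 of 8 were called (edgeR; 5 had an unadjusted p under 0.05). Most of this sum was albumin (Alb, 54150 against 104754 CPM on average), 7 of the 8 were higher, and Ttr was lower without overlap (log2 fold change -0.55, adjusted p = 0.290, edgeR). Liver Mttp, which the Villin promoter does not target, did not check the labels (log2 fold change -0.056, adjusted p = 0.926, edgeR).

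All members passed the filter on low counts. Itgb2, Itga8 and Itgb5 fell in *Mttp-IKO* livers, and no member passed the test in the other direction (3 of 10 at an adjusted p under 0.05, edgeR's quasi-likelihood test over 17287 genes). Over all genes tested, 4.01% were called (3.09% lower and 0.92% higher). Of all members, 7 of 10 had an unadjusted p under 0.05, against 23% of all genes tested (edgeR). Control and *Mttp-IKO* pools were fully separated for 6 members that were lower in *Mttp-IKO* pools (Itgam, Itgal, Itgb2, Itga8, Itgb5 and Itgb8) and for 1 that was higher (Itgb3). Over all genes, 31% were separated, 16.5% lower and 14.5% higher. The median log2 fold change was -1.05 over the 4 leukocyte members, -0.49 over the 6 matrix-binding members and 0.0057 over all genes. These medians describe the lists and were not tested. All 3 calls held without *Mttp-IKO* pool 3, and none held without control pool 1, control pool 3, *Mttp-IKO* pool 1 or *Mttp-IKO* pool 2, where 6 or 7 members had an unadjusted p under 0.05 (edgeR).

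**Figure D1:**
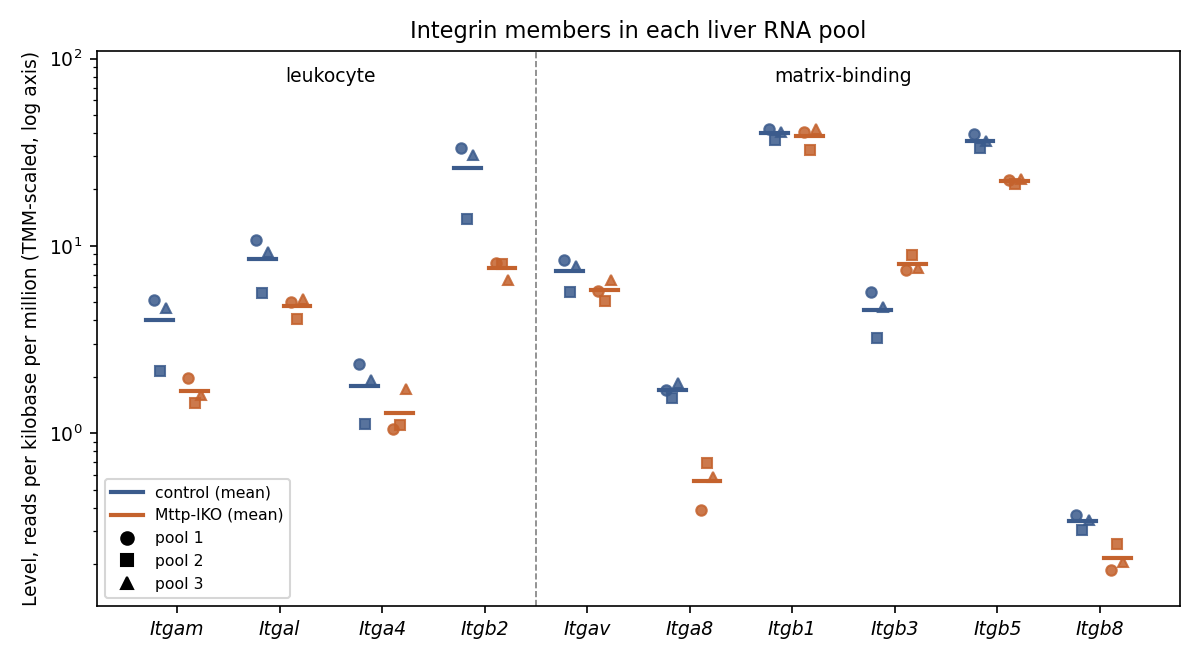
Level of each integrin gene in every pool, as RPKM (CPM per kilobase of exonic length) on a log axis, with control pools in blue, *Mttp-IKO* pools in orange and the mean of 3 pools as a line. The called genes Itgb2, Itga8 and Itgb5 show no overlap between the genotypes. Control pool 2 is the lowest control in all 4 leukocyte genes, and Itgb3 is higher in all 3 *Mttp-IKO* pools.

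Among the leukocyte members the shared beta chain differed most. Itgb2 (ENSMUSG00000000290, GRCm38 chromosome 10, 77530252 to 77565708) had 102, 42.6 and 93.0 CPM in control pools 1 to 3 and 24.8, 24.5 and 20.2 CPM in *Mttp-IKO* pools 1 to 3. Each *Mttp-IKO* pool was below the lowest control pool, which was pool 2. The gene fell 3.42-fold (79.2 ± 32.0 to 23.2 ± 2.58 CPM, SD, n = 3; log2 fold change -1.77, SE 0.312, adjusted p = 0.0292, edgeR). Itgam (chromosome 7, 128062640 to 128128160) had 33.0, 13.8 and 29.8 CPM in control and 12.5, 9.29 and 10.2 CPM in *Mttp-IKO* pools. Its groups did not overlap, although control pool 2 lay only just above *Mttp-IKO* pool 1. Itgam did not pass the test (log2 fold change -1.25, SE 0.318, adjusted p = 0.0698, edgeR). Without control pool 2 it did (-1.57, adjusted p = 0.0119, edgeR), and also without a filter (adjusted p = 0.0347, edgeR). DESeq2's Wald test called it as well (adjusted p = 0.00566). Itgal (chromosome 7, 127296260 to 127335137) had 68.4, 35.7 and 59.1 CPM in control and 32.2, 26.0 and 33.2 CPM in *Mttp-IKO* pools. The groups were again separate by a small margin and the test was not passed (-0.84, SE 0.246, adjusted p = 0.0975, edgeR). Itgal was called without control pool 2 (-1.09, adjusted p = 0.0262, edgeR) and by DESeq2's Wald test (adjusted p = 0.0364). Itga4 (chromosome 2, 79255426 to 79333123), the alpha chain shared by lymphocytes, monocytes and eosinophils, had 32.8, 15.7 and 26.8 CPM in control and 14.6, 15.4 and 24.0 CPM in *Mttp-IKO* pools. These groups overlapped (-0.48, SE 0.302, adjusted p = 0.377, edgeR). Of its exonic length 8.04% is shared with Cerkl on the opposite strand. Only unambiguous reads were counted, so reads there would be left out unless strand was used, which is not stated.

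The promoter of Itgam, the myeloid alpha chain, is shown because it holds the core letters bound by PU.1, a transcription factor of myeloid cells, which that of Itga4 does not. RefSeq entries for GRCm38.p6 existed for 7 of the 10 members; Itgal, Itgb2 and Itgb3 had none. The 250 bases before the start of Itgam lie at chr7:128062390-128062639 on the plus strand.
Itgam: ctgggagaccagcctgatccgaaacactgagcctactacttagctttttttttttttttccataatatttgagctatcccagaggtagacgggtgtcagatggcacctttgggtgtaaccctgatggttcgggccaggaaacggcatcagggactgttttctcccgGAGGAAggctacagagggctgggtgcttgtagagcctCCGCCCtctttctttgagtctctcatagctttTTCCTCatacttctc
Capitals mark the PU.1 core GAGGAA (from -84 to -79, and on the other strand from -15 to -10, counted from -1 at the last base before the start) and an Sp1 box GGGCGG on the other strand (from -47 to -42). Of 32851 promoters, 23.3% hold the PU.1 core and 32.7% the Sp1 box on either strand. Of the matrix-binding members, Itgav also held 2 PU.1 cores and Itgb1 held 1, and binding was not measured.

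Of the matrix-binding members, Itga8 had the log2 fold change farthest from 0. Itga8 (ENSMUSG00000026768, chromosome 2, 12106632 to 12301920), a receptor for nephronectin, fibronectin and the latent TGF-beta propeptide, had 12.3, 11.2 and 13.4 CPM in control pools 1 to 3. In *Mttp-IKO* pools it had 2.84, 5.04 and 4.24 CPM. The control pools lay close together and all of them above all *Mttp-IKO* pools by more than the spread within either group. The gene fell 3.06-fold (12.3 ± 1.10 to 4.04 ± 1.12 CPM, SD, n = 3; log2 fold change -1.61, SE 0.240, adjusted p = 0.0192, edgeR). Itgb5 (chromosome 16, 33829665 to 33949153), which joins Itgav in a vitronectin receptor, had 133, 112 and 123 CPM in control and 75.5, 72.1 and 76.6 CPM in *Mttp-IKO* pools. Both groups were tight and separate, and the gene fell 1.64-fold (log2 fold change -0.71, SE 0.145, adjusted p = 0.0405, edgeR). This call was lost with the replicate number as a block (adjusted p = 0.0696, edgeR).

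Itgb3 was the one member with a higher mean in *Mttp-IKO* pools. Itgb3 (ENSMUSG00000020689, chromosome 11, 104608000 to 104670476), the beta chain of the vitronectin receptor and, with Itga2b, of the platelet fibrinogen receptor, had 33.6, 19.0 and 27.8 CPM in control and 44.0, 52.5 and 44.7 CPM in *Mttp-IKO* pools. All *Mttp-IKO* pools were above all control pools, but the difference did not pass the test (log2 fold change 0.81, SE 0.219, adjusted p = 0.0800, edgeR); by DESeq2's Wald test it did (adjusted p = 0.0171). The 6 platelet markers, which include Pf4, summed to 3.52 to 5.85 CPM in control and 3.36 to 5.67 CPM in *Mttp-IKO* pools. The short Pf4 mRNA had 10 reads in *Mttp-IKO* pool 3, the pool with few short mRNAs, and 46 to 144 reads elsewhere. Only 3 of the platelet markers passed the filter and 0 were called (edgeR). The partner Itga2b, named after its value was seen, had 4.65 ± 0.313 against 5.17 ± 2.69 CPM (SD, n = 3, adjusted p = 0.839, edgeR). The part of platelets in the Itgb3 difference was not tested. Itgb8 (chromosome 12, 119158022 to 119238802), which activates latent TGF-beta with Itgav, had 4.04, 3.35 and 3.81 CPM in control and 2.06, 2.85 and 2.27 CPM in *Mttp-IKO* pools. The groups did not overlap, at counts of only 54 to 163 reads a pool, and the test was not passed (-0.64, SE 0.243, adjusted p = 0.168, edgeR).

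The 2 members that pair most widely differed least of the members. Itgb1 (chromosome 8, 128685654 to 128733200), the common beta chain of collagen, laminin and fibronectin receptors, had 172, 150 and 166 CPM in control and 165, 133 and 172 CPM in *Mttp-IKO* pools. The groups overlapped throughout (log2 fold change -0.051, 95% interval -0.44 to 0.34, adjusted p = 0.884, edgeR), and the sign turned without *Mttp-IKO* pool 2. Itgav (chromosome 2, 83724397 to 83806916) had 90.8, 61.2 and 84.0 CPM in control and 62, 54.3 and 70.6 CPM in *Mttp-IKO* pools. Only control pool 2 reached into the *Mttp-IKO* range (-0.34, 95% interval -0.78 to 0.11, adjusted p = 0.335, edgeR). Exons of Itgav share 5.90% of their length with Gm13684 on the opposite strand, and those of Itga8 share 5.07% with E030013I19Rik, whose count in control pool 1 was 3 reads.

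The promoters of the 2 matrix-binding genes that fell are shown beside that of Itgam for contrast, as the 250 bases before each RefSeq start. That of Itga8 lies at chr2:12301945-12302194 on the minus strand and that of Itgb5 at chr16:33829415-33829664 on the plus strand.
Itga8: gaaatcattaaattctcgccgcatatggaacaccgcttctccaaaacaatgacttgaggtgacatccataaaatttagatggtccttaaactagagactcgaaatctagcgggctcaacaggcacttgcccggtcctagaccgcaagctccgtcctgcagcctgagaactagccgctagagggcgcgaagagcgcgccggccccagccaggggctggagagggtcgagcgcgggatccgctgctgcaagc
Itgb5: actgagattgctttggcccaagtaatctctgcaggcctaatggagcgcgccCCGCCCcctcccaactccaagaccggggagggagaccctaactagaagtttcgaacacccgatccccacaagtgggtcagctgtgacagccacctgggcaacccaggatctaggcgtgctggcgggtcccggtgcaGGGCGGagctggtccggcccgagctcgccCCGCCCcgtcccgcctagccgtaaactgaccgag
Capitals mark the Sp1 box GGGCGG, found 3 times in Itgb5 on either strand. The Itga8 window held none of the 6 motifs searched on both strands, which were the PU.1 core, RUNX (TGTGGT, in 14.0% of promoters), AP-1 (TGANTCA, 6.75%), the Sp1 box, the SRF CArG box (1.47%) and TATAAA (12.4%). No match overlapped another in these windows. The GC content was 56.4% in Itga8, 65.2% in Itgb5 and 49.6% in Itgam, the lowest of the 7 members with an entry.

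**Figure D2:**
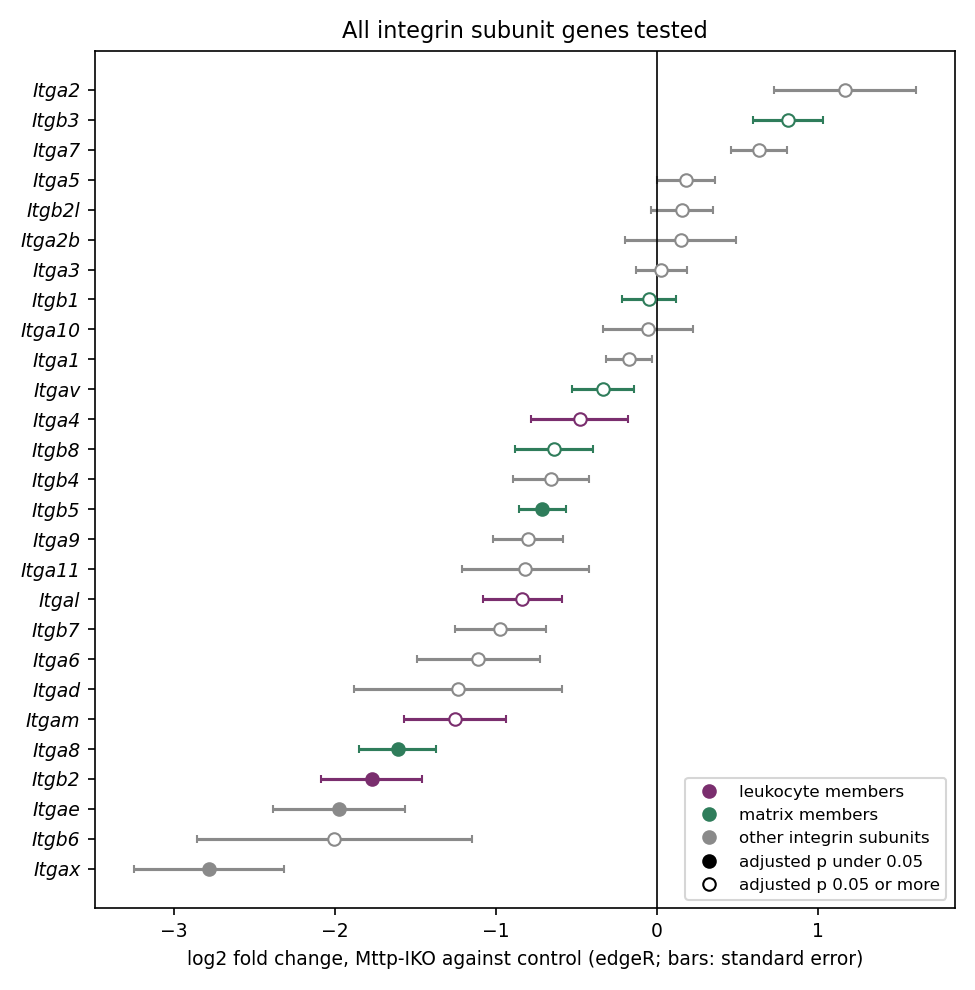
Log2 fold change of every integrin subunit gene tested, *Mttp-IKO* against control, with its standard error (edgeR), for leukocyte members in purple, matrix-binding members in green and other subunits in grey. Filled points passed an adjusted p of 0.05. Itgax lies lowest, Itgb2 and Itga8 lead the members on the lower side, and Itgb3 is the one member to the right of 0.

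Levels between genes were compared per kilobase of exonic length (RPKM). In control pools Itgb1 came first at 39.8 ± 2.84 RPKM (SD, n = 3), followed by Itgb5 at 36.4 ± 3.09 and Itgb2 at 25.9 ± 10.5 RPKM. Itgal followed at 8.52 RPKM, then Itgav at 7.32, Itgb3 at 4.54, Itgam at 4.00, Itga4 at 1.80, Itga8 at 1.70 and Itgb8 at 0.338 RPKM. Of the neighbours in this order, only Itgb2 and Itgal, and Itga8 and Itgb8, had pools that did not overlap. In *Mttp-IKO* pools Itgb1 (38.4 ± 5.17 RPKM) and Itgb5 (22.2 ± 0.695 RPKM) still led, now apart from each other. Itgb3 at 7.98 ± 0.799 RPKM, up from rank 6 to rank 3, came next, and Itgb2 followed at 7.59 ± 0.845 RPKM with overlapping pools. Itgav at 5.80 and Itgal at 4.77 RPKM overlapped, as did Itgam at 1.68 and Itga4 at 1.29 RPKM. Itga8 at 0.555 and Itgb8 at 0.216 RPKM were apart from their neighbours.

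Ratios of 2 members within a pool do not depend on how libraries are scaled, and 10 were compared by an exact permutation test, whose smallest two-sided p with 3 pools a group is 0.1. The ratio of Itgam to Itgb2, the 2 chains of Mac-1, was 0.155, 0.154 and 0.153 in control pools and 0.242, 0.182 and 0.243 in *Mttp-IKO* pools. Control pools thus gave nearly the same ratio, also pool 2 with its lower level of both chains, and every *Mttp-IKO* pool was above them (difference 0.51 log2, exact p = 0.1, adjusted p = 0.143 over 10 ratios). The ratio of Itgal to Itgb2, the chains of LFA-1, was 0.321, 0.401 and 0.304 in control and 0.621, 0.507 and 0.788 in *Mttp-IKO* pools (0.89 log2, exact p = 0.1). The leukocyte chain Itgb2 relative to the common chain Itgb1 was 0.792, 0.381 and 0.751 in control pools. It was 0.201, 0.247 and 0.157 in *Mttp-IKO* pools, so all of these lay below all controls (-1.62 log2, exact p = 0.1).

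Among the matrix-binding chains, Itga8 relative to its partner Itgb1 was 0.0403, 0.0421 and 0.0455 in control and 0.00963, 0.0213 and 0.0138 in *Mttp-IKO* pools (-1.59 log2, exact p = 0.1). Relative to Itgav, Itga8 was also apart (-1.32 log2). Of the beta chains that share Itgav, Itgb3 was 0.675, 0.564 and 0.602 of it in control and 1.29, 1.76 and 1.15 of it in *Mttp-IKO* pools (1.17 log2, exact p = 0.1). Itgb3 mRNA was thus below Itgav mRNA per kilobase in all control pools and above it in all *Mttp-IKO* pools. Itgb5 was 4.66 to 5.84 times Itgav in control and 3.46 to 4.24 times in *Mttp-IKO* pools (-0.38 log2, exact p = 0.1). The groups overlapped for Itgb8 to Itgav (exact p = 0.3), Itga4 to Itgb1 (exact p = 0.3) and Itgam to Itgal (exact p = 0.2). Each direction held with any 1 pool left out.

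**Figure D3:**
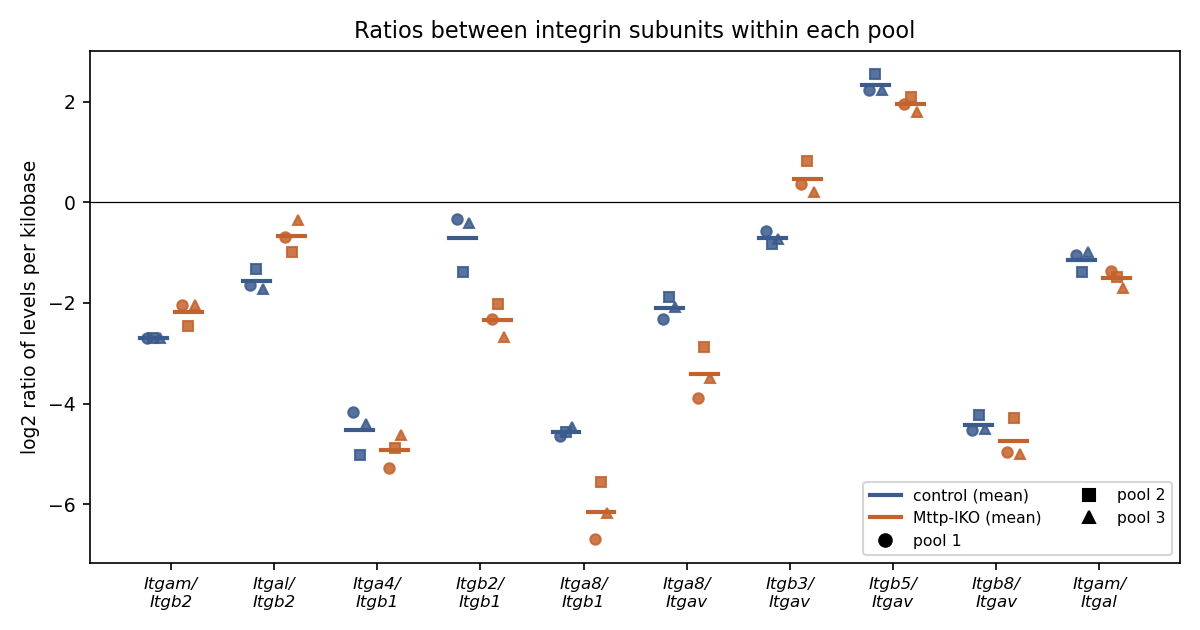
Log2 ratio of the levels per kilobase of 2 integrin genes in each pool, with control in blue, *Mttp-IKO* in orange and means as lines. The 3 control pools coincide for Itgam to Itgb2, and Itgb3 to Itgav crosses 0 between the genotypes.

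Markers of some of the cells that carry these integrins moved as well, and those of others overlapped. In RNA of whole liver, fewer cells of a type and less RNA per cell cannot be told apart. The 8 pan-leukocyte markers, Ptprc (CD45) among them, summed to 315 to 619 CPM in control and 199 to 220 CPM in *Mttp-IKO* pools, with 3 of 8 called, all lower. Beside this and the lists below, 3.09% of all genes tested were called lower and 0.92% higher (edgeR). The summed leukocyte members ran from 108 to 236 CPM in control and from 75.2 to 87.6 CPM in *Mttp-IKO* pools. The log2 ratio of the group means was -1.26 for these markers and -1.16 for the integrins, and control pool 2 was the lowest control in both. Recruited macrophage markers had the larger difference, from 220 to 686 CPM in control to 64.7 to 131 CPM in *Mttp-IKO* pools, with 4 of 8 called, all lower. Most of their sum in control pools was Gpnmb (436 against 80.2 CPM on average), which was not called (adjusted p = 0.0588, edgeR). Chil3 had a higher mean in *Mttp-IKO* pools (log2 fold change 0.20, adjusted p = 0.891, edgeR). Kupffer cell markers overlapped (469 to 742 against 352 to 736 CPM), with 1 of 8 called, higher. Those of neutrophils also overlapped (14.2 to 29.2 against 12.4 to 21.2 CPM, 0 of 5 tested called). T and NK cell markers (6.85 to 14.9 against 3.52 to 7.0 CPM, 0 of 8 called) and dendritic cell markers (27.6 to 38.7 against 22.0 to 31.5 CPM, 2 of 6 called, lower) overlapped, and those of B cells did not (4.09 to 4.66 against 2.13 to 2.60 CPM, 0 of 5 called). Most of the dendritic sum was Zbtb46 and Clec9a, which were not called and had higher means in *Mttp-IKO* pools (log2 fold change 0.14 and 0.22, edgeR). The part of these cells in the integrin differences was not tested.

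Stellate cell markers summed to 912 to 1096 CPM in control and 650 to 770 CPM in *Mttp-IKO* pools, with 4 of 10 called, all lower (Lrat, Colec11, Pdgfrb and Cygb). Of the stellate list, Des had 68.1 CPM in control pool 2, against 19.1 and 12.5 CPM in control pools 1 and 3. Control pool 2, the lowest control in this sum, also held 587 CPM of striated muscle markers. The part of muscle RNA in the stellate sum was not tested. Itga8 had a log2 fold change of -1.61, beside -1.71 for Lrat, the enzyme that stores vitamin A in stellate cells, and -0.86 for the median stellate marker. Ecm1, the stellate marker with the smallest difference, stood at 0.038 (adjusted p = 0.911, edgeR). Portal fibroblast markers ran from 98.7 to 137 CPM in control and from 42.3 to 67.4 CPM in *Mttp-IKO* pools (2 of 6 called, lower). Endothelial (423 to 482 against 423 to 472 CPM, 0 of 8 called) and mesothelial markers (16.6 to 28.5 against 9.48 to 21.3 CPM, 0 of 5 called) overlapped, as did cholangiocyte markers (103 to 145 against 119 to 194 CPM, 0 of 7 called). Pancreas markers stayed at 2.94 to 6.43 CPM. Among all these lists only Prss1 of pancreas was at 0 reads in every pool. The part of the marker differences in the values of Itga8 and Itgb8 was not tested.

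**Figure D4:**
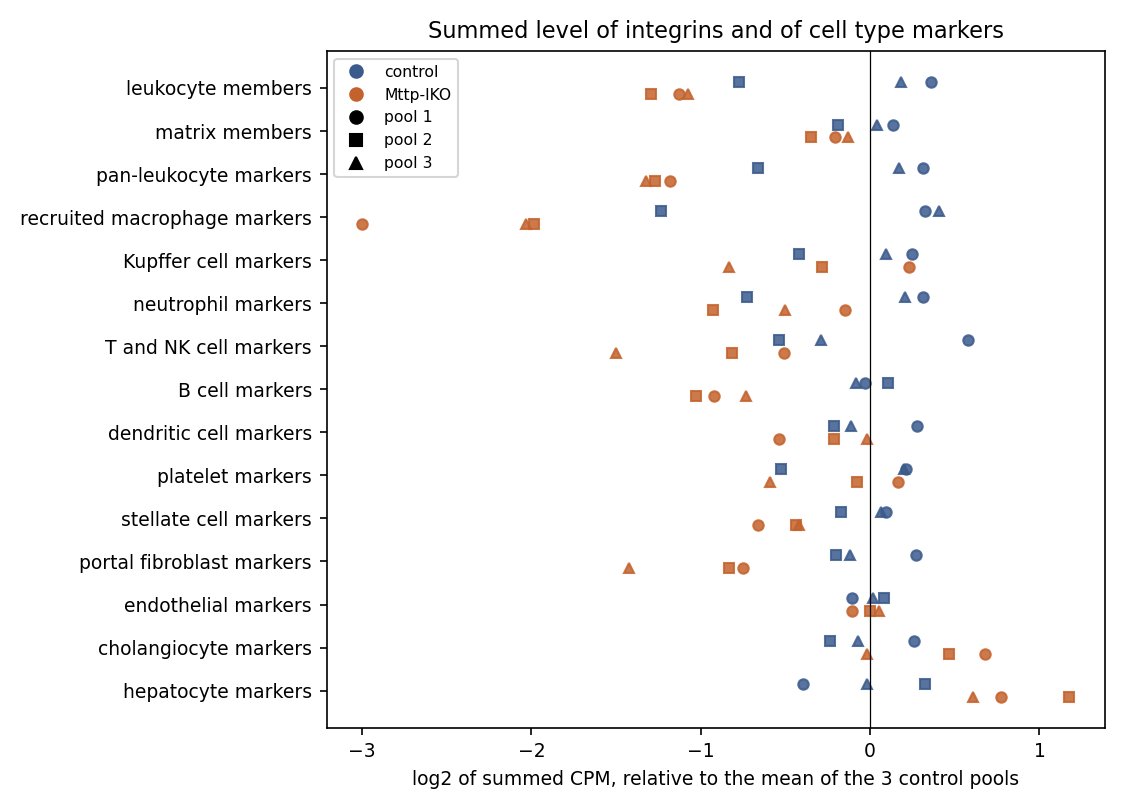
Summed CPM of the integrin members and of the cell type marker lists (without mesothelial, muscle and pancreas markers) in every pool, as log2 relative to the mean of the 3 control pools, with control in blue and *Mttp-IKO* in orange. Leukocyte members and pan-leukocyte markers are both lower in all *Mttp-IKO* pools, while endothelial markers show no separation. *Mttp-IKO* pool 3 is the highest *Mttp-IKO* pool for the leukocyte members and the lowest for the pan-leukocyte markers.

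Of the 17 other integrin subunit genes, all were tested and 2 fell, Itgax and Itgae (edgeR), at a median log2 fold change of -0.66. For comparison, 3.09% of all genes tested were called lower, and their median was 0.0057. Itgax (CD11c), the alpha chain of dendritic cells and lipid-laden macrophages that also pairs with Itgb2, had 52.7, 18.2 and 50.3 CPM in control and 3.29, 7.82 and 6.5 CPM in *Mttp-IKO* pools. Its pools were far apart (log2 fold change -2.78, SE 0.465, adjusted p = 0.0248, edgeR), beside -1.25 for Itgam and -0.84 for Itgal; the differences between these were not tested. Itgae (CD103), the E-cadherin receptor of resident T cells and some dendritic cells, had 46 to 87 reads in control and 8 to 16 reads in *Mttp-IKO* pools (-1.98, SE 0.410, adjusted p = 0.0423, edgeR); limma-voom, the replicate block and the fit without *Mttp-IKO* pool 3 did not call it. The most abundant of the rest per kilobase were Itga5 (log2 fold change 0.18, adjusted p = 0.586), Itga1 (-0.17, 0.495), Itga9 (-0.80, 0.0808) and Itga3 (0.026, 0.942, all edgeR). Itga1 and Itga5 are collagen and fibronectin receptor chains that pair with Itgb1, and their groups overlapped, as did those of Itgb1. The groups did not overlap for Itga9, nor for the Itgb1 partner Itga8, both lower in *Mttp-IKO* pools. Chosen after their values were seen, other partners of Itga4 and Itgav did not pass the test. Itgb7, the gut-homing partner of Itga4, had 129 to 253 reads in control and 61 to 77 reads in *Mttp-IKO* pools (-0.97, adjusted p = 0.0946, edgeR). Itgb6, the epithelial partner of Itgav, had 31, 14 and 26 reads in control and 12, 2 and 0 reads in *Mttp-IKO* pools (adjusted p = 0.210, edgeR). The count of 0 allows up to 0.119 CPM, scaled by total reads. Itga7, known from muscle and also named after its values were seen, had 9.99, 11.2 and 9.28 CPM in control pools, with control pool 2 the highest of them, and 13.3 to 17.1 CPM in *Mttp-IKO* pools (0.63, adjusted p = 0.0858, edgeR).

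Of 30 listed ligand genes, 28 symbols were in the table, 24 were tested and 6 were called, 4 lower and 2 higher, at a median log2 fold change of -0.46. The symbols not found were Cyr61 and Ctgf. Their newer symbols were not searched, so these genes were not examined. The shares over all genes tested were 3.09% lower and 0.92% higher. The 4 ligands that fell are matrix proteins. Tnc, which encodes tenascin-C, a ligand of Itga8, Itgav and Itga9 integrins, had 22.3, 6.54 and 9.09 CPM in control and 0.774, 1.03 and 0.965 CPM in *Mttp-IKO* pools (-3.78, SE 0.495, adjusted p = 0.0175, edgeR). Emilin1, a ligand of VLA-4 and Itga9 integrins (-1.30, adjusted p = 0.0181), Postn, which encodes periostin (-1.64, adjusted p = 0.0445), and Ltbp1, which anchors latent TGF-beta in matrix (-0.77, adjusted p = 0.0330), fell as well. Fga and Fgg, hepatocyte genes of fibrinogen, the ligand of Mac-1 and Itgb3 integrins, rose from 1751 ± 177 to 3289 ± 106 and from 1001 ± 99.3 to 1881 ± 120 CPM (SD, n = 3; both 0.91, adjusted p = 0.0463 and 0.0423, edgeR). Both calls were lost with scaling by total counts, with the replicate block and without control pool 2. The summed hepatocyte markers, mostly Alb, were higher in *Mttp-IKO* pools too, with 0 of 8 called and Ttr lower, and their part in this was not tested. Ltbp1 was not called with the block, nor Postn by limma-voom. The most abundant of the rest per kilobase were C3 (0.085, adjusted p = 0.855), Fgb (0.73, 0.112), Vtn (0.26, 0.474) and Fn1 (0.60, 0.159, all edgeR), hepatocyte products that bind Mac-1 or Itgav integrins. Named after their values were seen, the endothelial ligands of LFA-1 and VLA-4 were Icam1 (28.2 ± 5.93 against 16.3 ± 4.05 CPM, adjusted p = 0.0975) and Vcam1 (76.6 ± 30.4 against 56.0 ± 7.21 CPM, adjusted p = 0.368, edgeR), and neither passed.

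Of 30 genes whose proteins bind integrin tails or switch integrins on, 3 fell and none was called higher (edgeR), at a median log2 fold change of -0.25. Among all genes tested 3.09% were called lower and 0.92% higher, and the median was 0.0057. Parvg, the parvin of blood cells, had 9.0, 6.4 and 7.84 CPM in control and 2.06, 3.16 and 2.94 CPM in *Mttp-IKO* pools (-1.51, SE 0.249, adjusted p = 0.0241). Apbb1ip, which encodes RIAM, the protein that recruits talin to leukocyte integrins, had 26.3, 14.5 and 24.3 CPM in control and 9.32, 7.89 and 7.42 CPM in *Mttp-IKO* pools (-1.40, SE 0.247, adjusted p = 0.0292). Tns3, a tensin, fell by 0.84 on the log2 scale (adjusted p = 0.0441, edgeR), a call that limma-voom and the replicate block did not make. The most abundant of the rest were Tns1 (0.94, adjusted p = 0.174), Tns2 (0.087, 0.890), Zyx (0.013, 0.973) and Lims2 (-0.16, 0.610, all edgeR). Tns1 had 541, 937 and 1638 CPM in *Mttp-IKO* pools against 535 to 543 CPM in control pools, so the control pools were alike and the *Mttp-IKO* pools were not. Chosen after their values were seen, none of the 3 kindlins, which switch integrins on, passed the test. Fermt3 of blood cells had 26.8 ± 9.03 against 13.2 ± 3.5 CPM (-1.02, adjusted p = 0.102) and Fermt2 of other cells 88.2 ± 13.6 against 98.4 ± 7.32 CPM (0.16, adjusted p = 0.608, edgeR), and Fermt1 of epithelia had 4.60 against 4.60 CPM (0.0009, adjusted p = 0.999, edgeR). The differences between them were not tested.

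**Figure D5:**
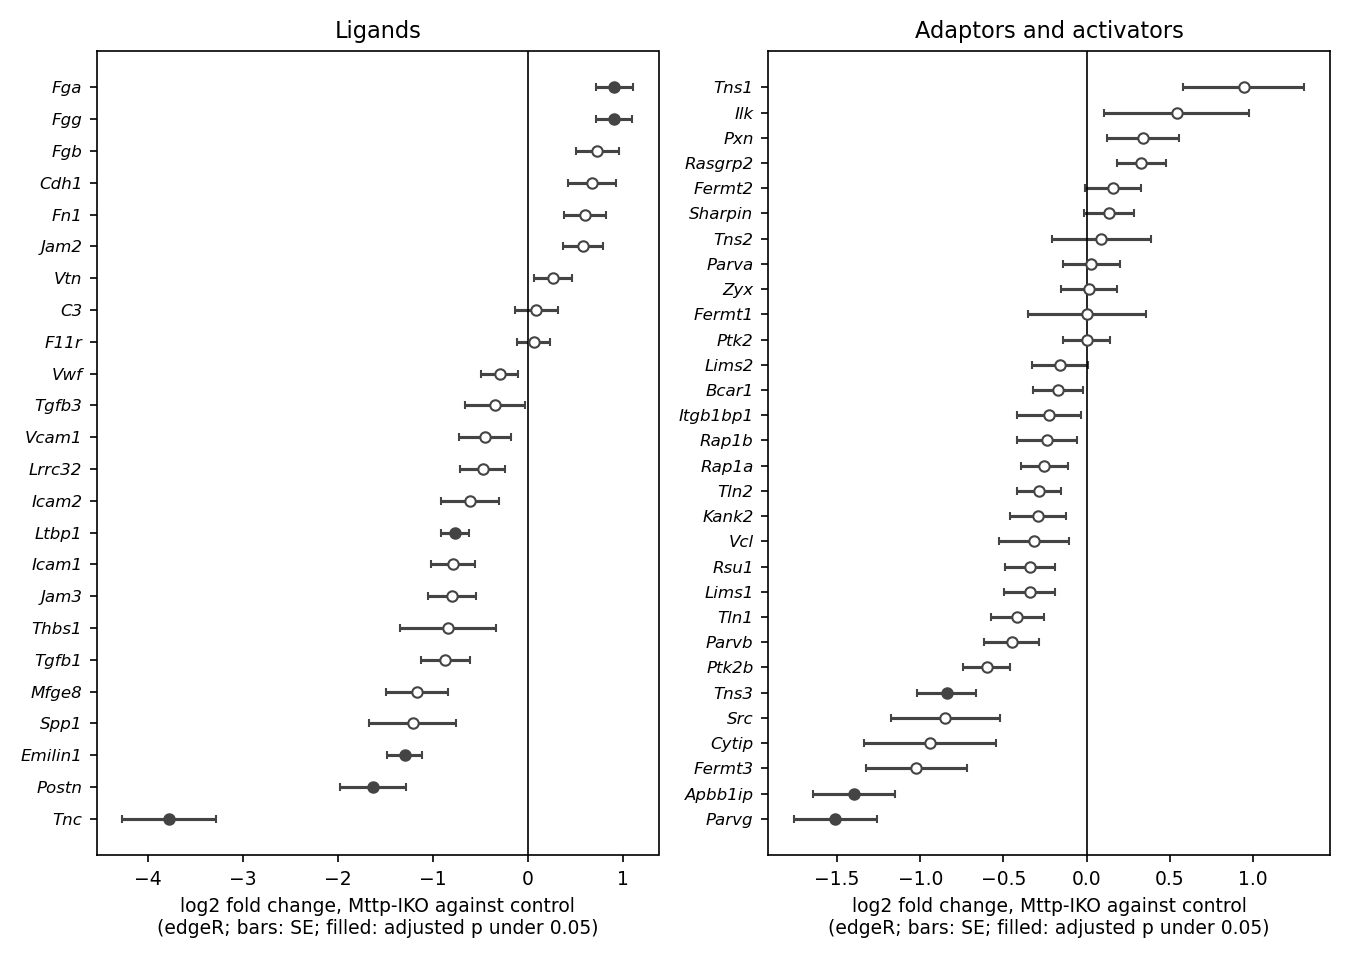
Log2 fold change of integrin ligand genes (left) and of genes whose proteins bind or activate integrins (right), *Mttp-IKO* against control, with standard errors (edgeR); filled points passed an adjusted p of 0.05. Tnc lies farthest to the left among ligands, Fga and Fgg farthest to the right, and Parvg and Apbb1ip lead the adaptors on the lower side.

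The genes whose pattern over the 6 pools was most like that of a member were found by the root mean square difference of centred log2 CPM, among 12584 genes. For Itgb2 these were Atp8b4 (0.043), Sirpa (0.073), a receptor of myeloid cells, and Evl (0.078), and all of them fell as well (adjusted p = 0.0378, 0.0298 and 0.0285, edgeR) and were lowest among controls in pool 2. For Itga8 they were Pdgfb (0.141), a growth factor for stellate cells, Parvg (0.145), the adaptor named above, and Plxdc1 (0.169), which also fell (adjusted p = 0.0181, 0.0241 and 0.0437, edgeR). For Itgb8 they were Nuak1 (0.069), Lsm3 (0.075) and Glis2 (0.078), none of which passed (adjusted p = 0.103 to 0.212, edgeR). These likenesses are descriptions and include the difference between genotypes.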

How the data were processed

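Liver RNA of 3 control and 3 *Mttp-IKO* pools was sequenced after depletion of ribosomal RNA. The authors deposited raw counts per gene, made with STAR 2.5.1a and featureCounts 1.4.6-p5 on the Ensembl GRCm38 assembly from uniquely aligned, unambiguous reads; the strand setting is not given in the sources used here. They also deposited CPM and RPKM values, which follow from the counts. Counts of 41388 genes were read from the pool files and symbols from the series table, which holds 40481 of them with the same counts and 276 repeated lines. Pools held 25271585 to 36238734 reads, and 17287 genes passed edgeR's filterByExpr (minimum count 10, minimum total 15). Genotypes were compared by edgeR 4.0.16 (TMM, glmQLFit, glmQLFTest) under R 4.3.3, with p-values adjusted over these genes by Benjamini and Hochberg and a threshold of 0.05; intervals are of 95%. A replicate is a pool of mice, so p-values measure the spread between pools. CPM and RPKM in the text are TMM-scaled, except the limits for a count of 0, which are scaled by total reads.

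The members and lists were chosen with earlier results of these data known. Named were all members, list genes past the threshold, the 4 most abundant others of each list per kilobase, and for Itgb2, Itga8 and Itgb8 the 3 most similar genes with an average log2 CPM of at least 1; exceptions are marked. Lists were the other integrin subunits, ligands, adaptors and 16 sets of cell type markers. Alternatives were other scalings, filters and tests (DESeq2 1.42.0, limma-voom 3.58.1), a replicate block, removal of a length trend (loess, span 0.3), protein-coding genes only and leaving out each pool. Python 3.11.15 and matplotlib 3.10.9 made the figures.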

Additional observations from a re-analysis of the deposited data

How the results depend on the processing

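Itgb2 and Itga8 passed an adjusted p of 0.05 under all 10 alternatives that kept every pool, and Itgb5 under 9 of 10. DESeq2's Wald test called 6 members (adding Itgam, Itgal and Itgb3), 3 of them leukocyte genes, with 5 other subunits, 11 ligands and 5 adaptors. Without a filter 2 leukocyte members were called, and limma-voom called 1 other subunit. Leaving out single pools gave calls that ranged from 0 to 5 members, 0 to 3 leukocyte members, 0 to 2 matrix-binding members, 0 to 3 other subunits, 0 to 7 ligands and 0 to 4 adaptors (edgeR). The counts of 0 came without control pool 1 (1 ligand remained called), control pool 3, *Mttp-IKO* pool 1 or *Mttp-IKO* pool 2, where 6, 6, 6 and 7 members had an unadjusted p under 0.05 (edgeR). Of all genes, 24, 21, 55 and 0 were then called (3221 at an unadjusted p under 0.05 for the last), against 694 with all pools. Log2 fold changes kept their sign, except Itgb1, which ran from -0.13 without control pool 2 to 0.055 without *Mttp-IKO* pool 2 (adjusted p = 0.885, edgeR). The cause was not tested. Over all genes 1995 were called by DESeq2 and 428 by limma-voom. Scaling by total counts moved the median log2 fold change of all genes to -0.17 and the calls to 907 lower and 112 higher, against 535 and 159.

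With the replicate block, 1 matrix-binding member (Itga8), 1 other subunit (Itgax) and 3 ligands (Emilin1, Postn and Tnc) were called, and 592 genes in all. Same-numbered pools had deviations from their group means that correlated at 0.139, 0.112 and 0.007 over genes. Different-numbered pools correlated at -0.125 to 0.0208. Whether same-numbered pools share more than a number was not tested. The lowest counts named are those of Itgb6, with 0 to 31 reads a pool, and Itgae, with 8 to 87.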
